A study of Caenorhabditis elegans with 4 samples.

Results

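The genes described here build the nuclear pore and carry cargo through it. They are the 35 rows, of 37812 in the authors' deposited gene table, whose name has the prefix npp, imb, ima, ran or xpo followed by a number. The set holds 21 nucleoporin genes (npp) and 14 genes of soluble transport factors, which are 3 importin α genes (ima), 3 importin β genes (imb), 3 exportin genes (xpo) and 5 Ran genes (ran). The members were chosen by gene name, and no measured value enters the rule. The set was nevertheless proposed with earlier results of these data known, so the counts below describe these genes and no test of the set was made.

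RNA was sequenced from 4 libraries of mixed early embryos of wild-type Caenorhabditis elegans (strain N2), which spanned the 1-cell to the 350-cell stage and were taken from adults grown for 72 h. In the control group (2 libraries) the adults had received L4440, the empty RNAi vector, and in the other group (2 libraries) RNAi against sig-7, which the labels call sig-7 loss. SIG-7 is a cyclophilin of the nucleus that also binds RNA and is linked to elongation by RNA polymerase II. The labels give 1 growth protocol, on OP50 bacteria, for both groups, and the sources used here do not state how or for how long RNAi was applied.

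The authors' deposited tables give 1 pooled value per group in FPKM, a fragment number corrected for transcript length and for the mapped total. A level therefore has no spread of its own, library depth is not known, and whether libraries overlap cannot be seen. Replicate error enters through the authors' deposited q-value, and the words rose and fell are kept for genes with that q under 0.05. The targeted gene sig-7 had 39.8 FPKM in the control and 8.72 FPKM in the knockdown. The embryo label was checked against marker genes. Their calls stand beside rises in 11.2% and falls in 17.3% of all 10703 tested rows. The 10 maternal early-embryo markers were all detected, with summed levels of 751.0 and 981.1 FPKM, and 1 rose (nos-2, from 55.5 to 94.6 FPKM) and 1 fell (skn-1, from 23.1 to 13.98 FPKM). The 10 zygotic markers had summed levels of 179.2 and 155.2 FPKM, and 1 rose and 4 fell. The largest changes among them were the falls of elt-2 (6.37 to 1.09 FPKM), elt-1 (44.3 to 13.9 FPKM) and pha-4 (26.9 to 8.87 FPKM) and the rise of med-2 (1.08 to 3.91 FPKM). These genes encode transcription factors of early tissue founding. The 10 sperm markers summed to 0.175 and 0.301 FPKM, with 8 of them listed at 0 in each group, and the 9 adult markers that were found summed to 1.26 and 1.04 FPKM. The part of these shifts among zygotic markers in the results below was not tested. In such mixtures, fewer cells of a type and less RNA per cell cannot be told apart.

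The nuclear pore complex is the channel through which protein and RNA cross the nuclear envelope. Its scaffold is built from a Y-shaped subcomplex and an inner ring. Nucleoporins with phenylalanine-glycine repeats fill the channel, filaments reach into the cytoplasm, and a basket faces the nucleus. Cargo crosses the channel on importins and exportins, which load and release it in response to the GTP-bound form of the small GTPase Ran. Embryonic cells take the pore apart and rebuild it at each division, from parts that the oocyte has largely supplied.

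Most of these genes stood moderately higher in sig-7 RNAi. Of 34 tested genes, 31 were above the control value and 3 below it, and the median log2 ratio was 0.48, which is a 1.40-fold higher level. Of all 10703 tested rows 5207 were above it, and of the 5468 with a mean of at least 10 FPKM 3658 were. Among the 34 genes 11 rose and 1 fell in the authors' deposited table, whereas 11.2% of all tested rows rose and 17.3% fell. The rises were small, from 1.42-fold to 1.92-fold. Nucleoporin genes rose in 9 of 20 cases and fell in none. Transport genes rose in 2 of 14 cases and fell in 1. The difference between these families was not tested. Median log2 ratios were 0.51 for nucleoporin genes and 0.38 for transport genes, against -0.039 for all tested rows. Well-expressed genes in general had higher ratios. The 5468 tested rows with a mean of at least 10 FPKM had a median log2 ratio of 0.29, and 20.1% of them rose while 11.6% fell. Summed over all rows, FPKM was 1.69-fold higher in the knockdown (460231 and 776392 FPKM). Single rows can weigh heavily in these sums. The highest value of a tested row was 33284.8 FPKM in the control and 112113 FPKM in the knockdown. Setting both sums equal would lower every log2 ratio by 0.75. Under that scaling the medians became -0.25 for nucleoporin genes and -0.37 for transport genes. They became -0.79 for all tested rows and -0.46 for those with a mean of at least 10 FPKM. Of the 11 rises, 2 (npp-13 and ran-4) kept their sign, against 811 of the 1195 rises among all tested rows. The rises reported here are therefore rises on the authors' scale. At q under 0.01, 6 genes rose and 0 fell, against 6.72% and 13.1% of all tested rows. With a minimum of 1.5-fold added to q under 0.05, 8 rose and 1 fell, against 10.6% and 17%. In the table of transcription start site groups 11 rose and 0 fell, against 11% and 16.9%.

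**Figure D1:**
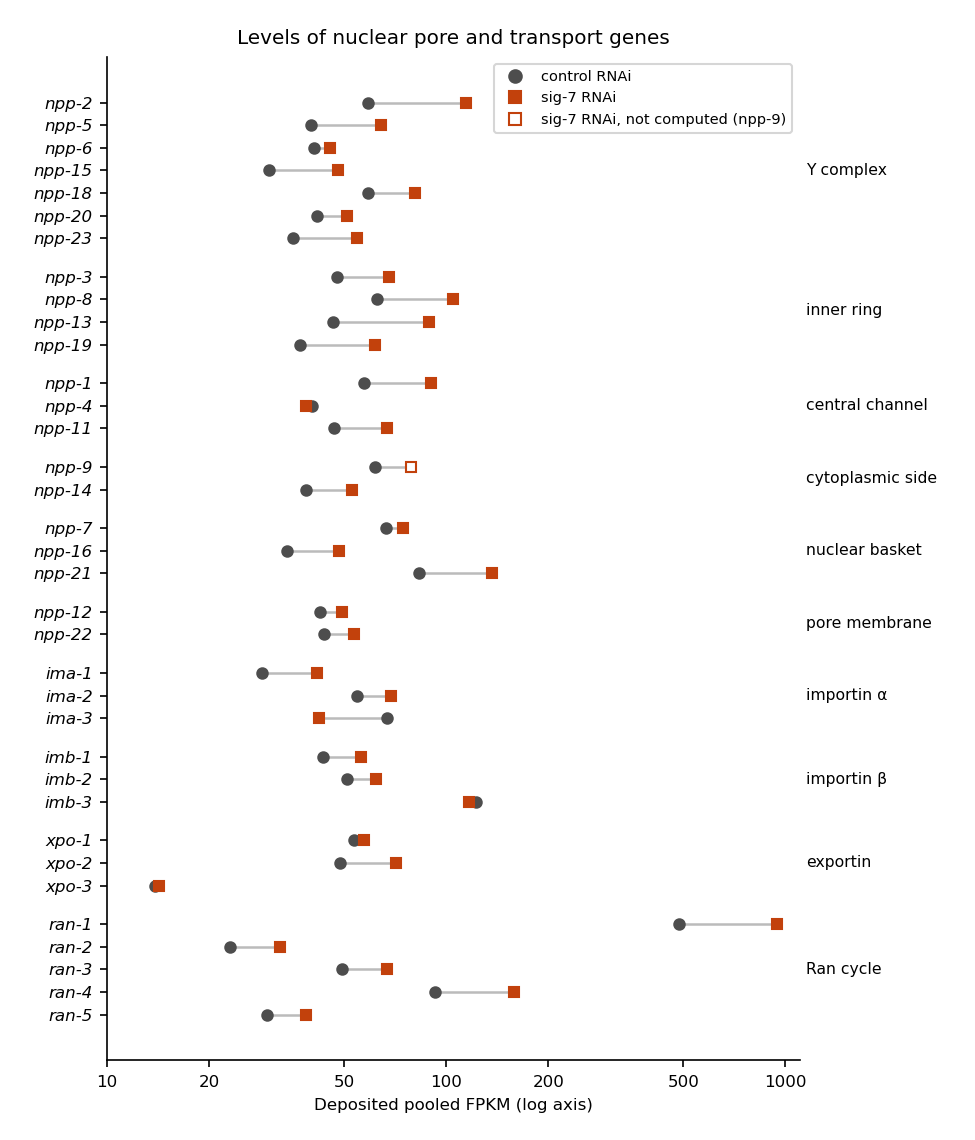
Deposited FPKM (log axis) of the 35 genes in control RNAi (circles) and sig-7 RNAi (squares), 1 pooled value per group, ordered by role in the pore or in transport. Most lines run to the right, by 1.03-fold for xpo-3 to 1.95-fold for npp-2. ima-3 runs to the left, as npp-4 and imb-3 do by a very short distance. ran-1 stands at 486.5 and 945.5 FPKM, far above the rest.

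The level of the genes in the control spanned 13.8 to 486.5 FPKM, and 30 of the 35 lay between 20 and 70 FPKM. The median was 43.6 FPKM for nucleoporin genes and 50.1 FPKM for transport genes. ran-1, which encodes Ran itself, was the most abundant at 486.5 FPKM, followed by imb-3 at 121.9 FPKM, ran-4 at 92.7 FPKM and npp-21 at 83.2 FPKM. At the lower end stood xpo-3 at 13.8 FPKM, ran-2 at 22.9 FPKM and ima-1 at 28.6 FPKM. Neighbours in this order cannot be separated, since the spread between libraries is unknown.

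The deposited locus of a gene went along with whether it could pass the threshold. For 25 of the genes the locus was shared by at most 3 gene rows. For the other 10 (npp-2, npp-6, npp-8, npp-9, npp-16, npp-18, npp-20, imb-1, xpo-1 and ran-1) the table lists a merged locus of 443 to 1320 kb that 96 to 288 gene rows share. Among all tested rows in loci shared by more than 20 rows, 0.0926% rose and 1.16% fell, against 14% and 21.4% of the rows in smaller loci. None of the 9 tested genes in merged loci passed the threshold, although their median log2 ratio of 0.47 was close to the 0.50 of the 25 others. npp-2 and npp-13 make the contrast plain. npp-2 was at 58.8 and 114.4 FPKM, 1.95-fold higher, with q = 0.731 in the authors' deposited table. npp-13 was at 46.2 and 88.8 FPKM, 1.92-fold higher, with q = 2.3e-04 in the authors' deposited table. A miss in a merged locus is thus no sign that a gene did not change. In the smaller loci, 9 of 14 nucleoporin genes and 2 of 11 transport genes rose. Of the 4337 tested rows in smaller loci with a mean of at least 10 FPKM, 25.2% rose and 14.4% fell.

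**Figure D2:**
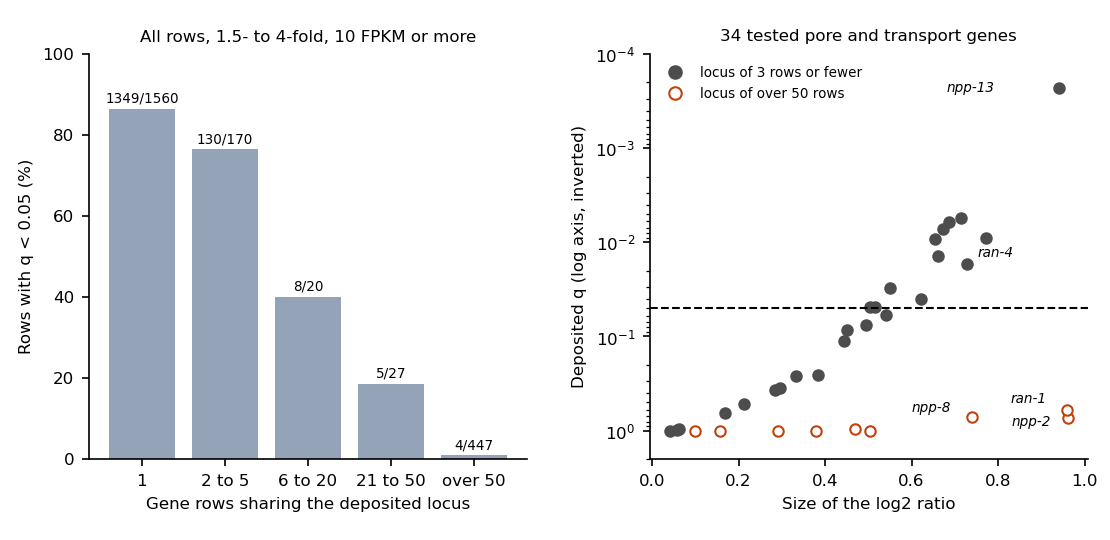
Left, share of tested rows with q under 0.05 among rows with a mean of at least 10 FPKM and a 1.5-fold to 4-fold difference, by the number of gene rows that share the deposited locus, with counts above the bars. Right, size of the log2 ratio against the deposited q (inverted log axis, dashed line at 0.05) of the 34 tested genes. The 25 genes in loci of 3 rows or fewer (filled) follow 1 band, and the 9 in merged loci (open) stay at q of 0.598 or more whatever their ratio.

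The Y complex, which forms the outer rings of the pore scaffold, had 7 tested genes, of which 3 rose and 0 fell. All 7 had higher values in sig-7 RNAi, with a median log2 ratio of 0.62. Of the 5468 tested rows at 10 FPKM or more, 3658 had higher values, 20.1% rose and 11.6% fell. npp-5, which encodes the Nup107 homologue (chromosome II, 11596859 to 11599739 on ce10), was at 39.9 and 64.3 FPKM in control and knockdown. It rose 1.61-fold (q = 0.00613 in the authors' deposited table). npp-15, the Nup133 gene, was at 30.1 and 47.9 FPKM and rose 1.59-fold (q = 0.00730 in the authors' deposited table). npp-23, the Nup43 gene, was at 35.3 and 54.3 FPKM and rose 1.54-fold (q = 0.0404 in the authors' deposited table). The other 4 genes of the complex sit in merged loci and did not pass the threshold. They were npp-2, the Nup85 gene described above, npp-18, the Seh1 gene, at 58.6 and 81.1 FPKM, npp-20, the Sec13 gene, at 41.6 and 50.9 FPKM, and npp-6, the Nup160 gene, at 40.6 and 45.3 FPKM. Folds over the 7 genes ran from 1.12 for npp-6 to 1.95 for npp-2, and differences between them were not tested.

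The inner ring, which lines the channel and anchors the scaffold to the membrane, had the highest median of the pore parts. Of 4 tested genes 3 rose and 0 fell, against 20.1% and 11.6% of tested rows at 10 FPKM or more. The median log2 ratio was 0.73, and differences between the pore parts were not tested. npp-13, the Nup93 gene (chromosome I, 2097350 to 2103279 on ce10), had the largest rise of any nucleoporin gene that passed the threshold. Its deposited locus covers 5930 bp of an annotated span of 26098 bp, so its value may stand for part of the gene. npp-19, which encodes the homologue of Nup35, also called Nup53, was at 37.1 and 61.4 FPKM and rose 1.66-fold (q = 0.0171 in the authors' deposited table). npp-3, the Nup205 gene, was at 47.7 and 67.7 FPKM and rose 1.42-fold, just inside the threshold (q = 0.0481 in the authors' deposited table). npp-8, the Nup155 gene in a merged locus, was at 62.7 and 104.7 FPKM, 1.67-fold higher, and did not pass the threshold (q = 0.725 in the authors' deposited table).

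The log2 ratios of the 3 channel nucleoporin genes ran from -0.057 to 0.66. NPP-1, NPP-4 and NPP-11 correspond to Nup54, Nup58 and Nup62, which form a common complex in vertebrate pores. npp-1 was at 57.1 and 90.0 FPKM and rose 1.57-fold (q = 0.00920 in the authors' deposited table). npp-11 was at 46.7 and 66.7 FPKM and rose 1.43-fold, just inside the threshold (q = 0.0486 in the authors' deposited table). npp-4 was at 40.1 and 38.5 FPKM, the single nucleoporin gene of the set with a lower value, and did not pass the threshold (q = 0.986 in the authors' deposited table). Its deposited locus is shared with no other gene row. The difference between npp-4 and its partners was not tested.

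The 2 faces of the pore and its membrane ring held 1 rise, where 20.1% of tested rows at 10 FPKM or more rose. npp-21, which encodes the Tpr homologue of the nuclear basket (chromosome II, 7599611 to 7607789 on ce10), was at 83.2 and 136.7 FPKM. It rose 1.64-fold (q = 0.00549 in the authors' deposited table) and had the highest FPKM of the 21 npp genes of the set in both groups. The other basket genes did not pass the threshold. npp-7, the Nup153 gene, was at 66.3 and 74.4 FPKM, and npp-16, the Nup50 gene in a merged locus, was at 33.9 and 48.1 FPKM. On the cytoplasmic side, npp-14, the Nup214 gene, was at 38.6 and 52.7 FPKM and lay just outside the threshold (q = 0.0846 in the authors' deposited table). npp-9, the gene of the large Ran-binding nucleoporin Nup358, was at 61.5 and 78.6 FPKM, but Cuffdiff failed to compute its test and it enters no count of calls. Of the membrane nucleoporin genes, npp-12, the gp210 gene, was at 42.4 and 49.1 FPKM and npp-22, the Ndc1 gene, at 43.6 and 53.5 FPKM, neither past the threshold.

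**Figure D3:**
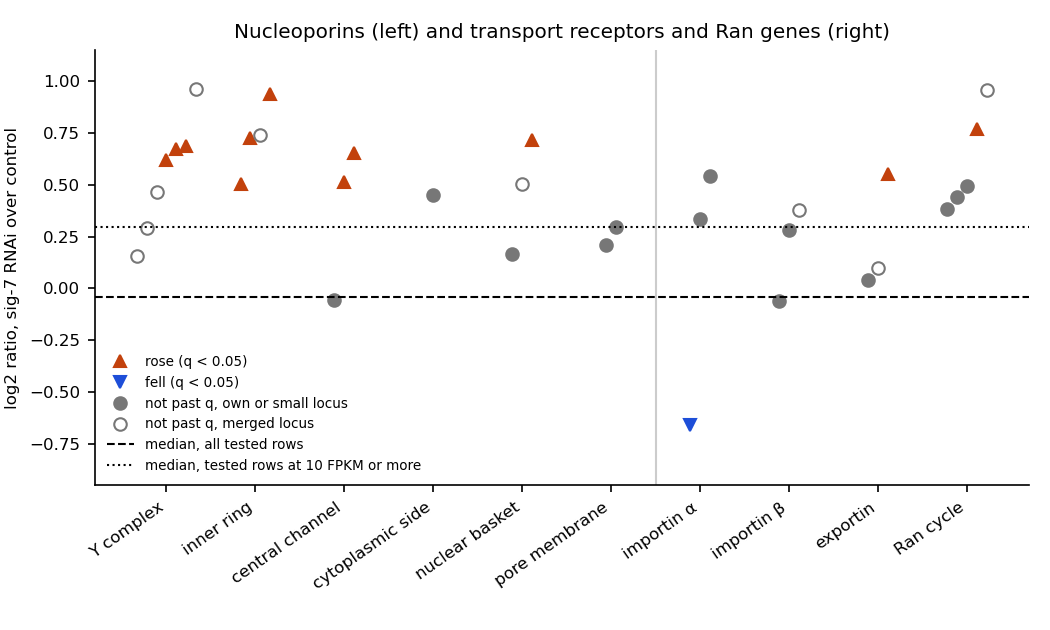
log2 ratio of sig-7 RNAi over control for the 34 tested genes by role, nucleoporins left of the grey line and transport genes right of it. Upward triangles rose, the downward triangle (ima-3) fell, circles did not pass the threshold and open circles lie in merged loci. The dashed and dotted lines mark the medians of all tested rows (-0.039) and of tested rows at 10 FPKM or more (0.29).

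The 3 importin α genes, which encode the adaptors that bind classical import signals, differed in direction. Among them 0 rose and 1 fell, against 20.1% and 11.6% of tested rows at 10 FPKM or more. ima-3 (chromosome IV, 7559780 to 7561649 on ce10), the importin α gene of the worm that is used in somatic as well as germline cells, was at 66.7 and 42.1 FPKM. It was 1.58-fold lower and the single gene of the set that fell (q = 0.0138 in the authors' deposited table). In the tables of isoforms and of transcription start sites, ima-3 has the same FPKM values but is marked as not tested. Its deposited locus covers 1870 bp of an annotated span of 2939 bp. The loci of genes that rose were also shorter than their spans, for instance npp-1 at 2374 of 3632 bp and ran-4 at 531 of 764 bp. The part of locus coverage in these values was not tested. The germline importin α genes were higher in sig-7 RNAi without passing the threshold. ima-1 was at 28.6 and 41.6 FPKM, just outside it (q = 0.0598 in the authors' deposited table), and ima-2 was at 54.5 and 68.7 FPKM (q = 0.265 in the authors' deposited table). In the control ima-3 had the highest value of the 3, and in sig-7 RNAi ima-2 had it.

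None of the 3 importin β genes passed the threshold, where 20.1% of tested rows at 10 FPKM or more rose and 11.6% fell. imb-1, the importin β gene, sits in a merged locus and was at 43.2 and 56.2 FPKM. imb-2, the transportin gene, was at 51.0 and 62.1 FPKM. imb-3, which encodes an importin of the importin 5 class that carries ribosomal proteins and histones in other species, was at 121.9 and 116.8 FPKM. The log2 ratio of imb-3 was -0.063, with q = 0.961 in the authors' deposited table.

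Of the 3 exportin genes, xpo-2 rose, against 20.1% of tested rows at 10 FPKM or more. XPO-2 is the homologue of CAS, which returns importin α to the cytoplasm. xpo-2 (chromosome I, 318826 to 323353 on ce10) was at 48.6 and 71.2 FPKM, 1.47-fold higher (q = 0.0302 in the authors' deposited table). xpo-1, the gene of the general export receptor CRM1, sits in a merged locus and was at 53.3 and 57.1 FPKM. xpo-3, the gene of the tRNA exportin, was nearly level at 13.8 and 14.2 FPKM.

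Genes of the Ran cycle were higher in 5 of 5 cases, and 1 rose. Of the 5468 tested rows at 10 FPKM or more, 3658 were higher and 20.1% rose. ran-4, which encodes the NTF2 homologue that carries Ran-GDP into the nucleus (chromosome I, 8591211 to 8591741 on ce10), was at 92.7 and 158.3 FPKM and rose 1.71-fold (q = 0.00890 in the authors' deposited table). ran-1, the Ran gene, was at 486.5 and 945.5 FPKM, 1.94-fold higher. It lies in a merged locus of 1320 kb shared by 286 gene rows, itself and npp-16 among them, and its q was 0.598 in the authors' deposited table. The genes of the regulators that set the Ran gradient did not pass the threshold. ran-2, the gene of the GTPase-activating protein on the cytoplasmic side, was at 22.9 and 32.3 FPKM (q = 0.0762 in the authors' deposited table). ran-3, the gene of the chromatin-bound exchange factor RCC1, was at 49.2 and 66.9 FPKM (q = 0.111 in the authors' deposited table). ran-5 was at 29.5 and 38.5 FPKM.

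At the isoform level, npp-19 and npp-21 each had 1 isoform that passed the threshold. Of the 35 genes, 5 have more than 1 isoform in the deposited tables, and no gene of the set has more than 1 transcription start site group. Of the 2 npp-19 isoforms, the more abundant was at 25.7 and 50.4 FPKM and rose 1.96-fold (q = 0.00304 in the authors' deposited table). The other was at 11.5 and 11 FPKM, and the share of the main isoform went from 69.1% to 82.0% of the gene. Of the 3 npp-21 isoforms, the most abundant was at 46.2 and 88.2 FPKM and rose 1.91-fold (q = 0.00383 in the authors' deposited table). The next was at 32.7 and 37.2 FPKM and did not pass the threshold, so that its share went from 39.3% to 27.2%. The least abundant was at 4.36 and 11.3 FPKM, 2.60-fold higher, and did not pass either (q = 0.475 in the authors' deposited table). By isoform, 9 genes of the set rose and 0 fell, against 10.7% and 16.4% of all tested isoform rows. Differences between isoforms of a gene were not tested, and isoform values divide shared fragments by an estimate. For imb-2 and npp-16 the main isoform held 97.9% or more of the gene in both groups. At the isoform level npp-11 and npp-3, which have 1 isoform each and the same FPKM there, no longer passed the threshold, with q = 0.0506 for npp-11 in the authors' deposited table.

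**Figure D4:**
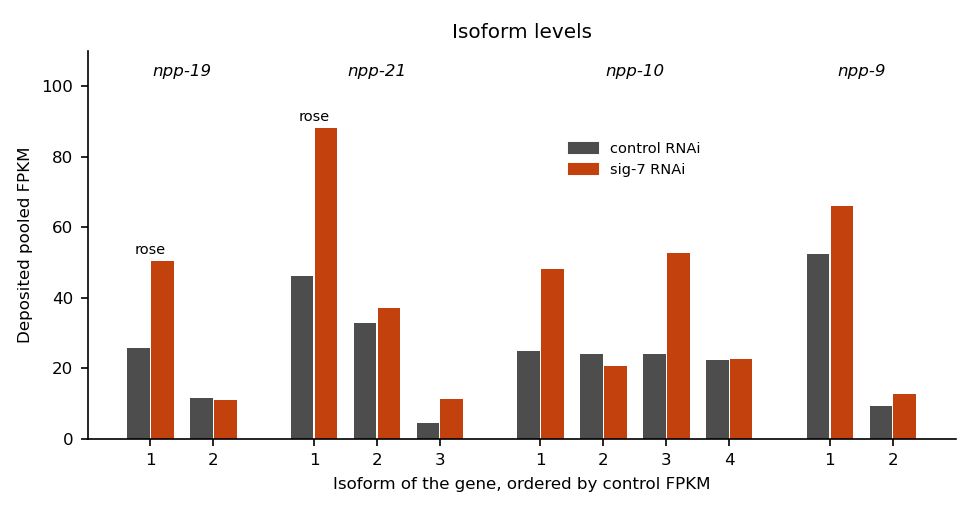
Deposited FPKM of each isoform of npp-19, npp-21, npp-10 and npp-9 in control RNAi (grey) and sig-7 RNAi (orange), 1 pooled value per bar, with isoforms numbered by their control level. The bars marked rose passed q under 0.05. In npp-19 and npp-21 isoform 1 passed, and in npp-10 isoforms 1 and 3 are higher while isoforms 2 and 4 are level or slightly lower.

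Some pore and transport genes are outside the name rule. npp-10, whose transcript is known to encode both Nup98 and Nup96, shares its row with ZK328.11 in a locus of 15 gene rows. That row was at 95.0 and 143.7 FPKM, 1.51-fold higher, and did not pass the threshold (q = 0.109 in the authors' deposited table). ZK328.11 is listed at 0 in the isoform table, so the 4 npp-10 isoforms account for the row. Isoforms 1 and 3 were at 25 and 48.0 FPKM and at 23.9 and 52.6 FPKM, and none of the 4 passed the threshold. rae-1, the gene of an mRNA export nucleoporin on the cytoplasmic side, rose from 52.6 to 91.8 FPKM (q = 0.00208 in the authors' deposited table). ZK177.4, which the RefSeq table names npp-24, rose from 25.3 to 40.3 FPKM (q = 0.0134 in the authors' deposited table). C35A5.8, which the RefSeq table names xpo-7, rose 2.04-fold from 60.5 to 123.8 FPKM (q = 5.62e-06 in the authors' deposited table), more than any exportin within the name rule. mel-28, the ELYS gene that starts pore assembly on chromatin, was at 65.3 and 59.1 FPKM, and C49H3.9, named npp-27, at 33.8 and 26 FPKM, neither past the threshold. Y37D8A.17, named npp-25, was at 29.5 and 28 FPKM in a merged locus. Of the genes outside the name rule, mel-28 alone was named beforehand as such. rae-1, npp-27 and xpo-7 were looked up after the values of other genes had been seen. No row was found for npp-26.

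The genes are not evenly placed in the genome. Chromosome I holds 13 of the 35 and 18.4% of all tested rows, whereas the X chromosome holds 0 of the 35 and 13.9% of all tested rows. On the X chromosome 34.4% of tested rows fell and 3.90% rose, with a median log2 ratio of -0.91, and on chromosome I 10.9% fell and 12% rose. The X rows are included in the shares and medians of all tested rows given above. The part of gene placement in the counts of the set was not tested. The spacing was read for 2 pairs of neighbours on the same strand, without a search for others. imb-3 and xpo-2 lie 3846 bp apart with no other gene row between them, at log2 ratios of -0.063 and 0.55. npp-15 and ran-2 lie 1016 bp apart with 1 row, a 21U RNA, between them, at 0.67 and 0.50. Across the 34 tested genes the log2 ratio had a Spearman correlation of 0.095 with the control level and -0.24 with the mature transcript length. Over the 8474 tested rows with an annotated length, the values were 0.28 and -0.21. These genes share their libraries and the correlations are a description. In the WBcel235 annotation, exons of 12 of the 35 genes overlap an exon of another gene by at most 314 bp, and whether counting used strand was not given in the sources used here.

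Genes of mRNA export, which pass cargo to the same pores, were higher in 13 of 13 tested cases. Of these, 8 rose and 0 fell, with a median log2 ratio of 0.63. Of all tested rows, 11.2% rose and 17.3% fell. Of the 5468 tested rows at 10 FPKM or more, 3658 were higher, 20.1% rose and 11.6% fell. All 8 rises were among the 11 genes outside merged loci, where 9 of 14 nucleoporin genes rose. Of all tested rows there with a mean of at least 10 FPKM, 25.2% rose. aly-2, an adaptor gene of mRNA export, rose 2.40-fold to 489.0 FPKM (q = 2.67e-08 in the authors' deposited table), and the cap-binding genes ncbp-2 and ncbp-1 rose 2.17-fold and 1.94-fold. dss-1, whose protein is shared with the proteasome, rose 2.05-fold. nxf-1, the gene of the main mRNA export receptor, was at 44.3 and 52.7 FPKM and did not pass the threshold. In the SUMO list, whose modifier is attached to RanGAP at vertebrate pores, 2 of 6 tested genes rose, ubc-9 by 1.87-fold and aos-1 by 1.73-fold. The SUMO gene smo-1 lies in a merged locus and was at 560.5 and 1092 FPKM. The differences in frequency between these lists and the pore genes were not tested.

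Nuclear envelope genes were divided between rises and falls. Of 12 tested, 5 rose and 3 fell, with a median log2 ratio of 0.51. The shares were 11.2% and 17.3% of all tested rows and 20.1% and 11.6% of those at 10 FPKM or more. This list includes mel-28, which was given above among the genes outside the name rule. The rises were those of baf-1 (1.67-fold), which encodes a protein that binds DNA and envelope proteins, the kinase gene vrk-1 (1.65-fold), the lamin gene lmn-1 (1.51-fold, from 137.7 to 208.0 FPKM), lem-2 (1.48-fold) and sun-1. The emerin gene emr-1 was at 55.6 and 83.1 FPKM and lem-3 at 39.9 and 54.6 FPKM, neither past the threshold. The falls were those of anc-1, unc-83 and unc-84, whose proteins connect nuclei to the cytoskeleton. anc-1, a giant KASH protein gene, went from 7.13 to 0.561 FPKM and was 12.7-fold lower. unc-83, another KASH gene, went from 20.4 to 4.03 FPKM, and unc-84, the gene of their SUN partner, from 36.5 to 19.2 FPKM. Each of these falls was larger than that of ima-3, and each gene passed the threshold in the authors' deposited table, with unc-84 at q = 2.42e-04. sun-1, the SUN gene of the germ line and early embryo, rose 1.60-fold.

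**Figure D5:**
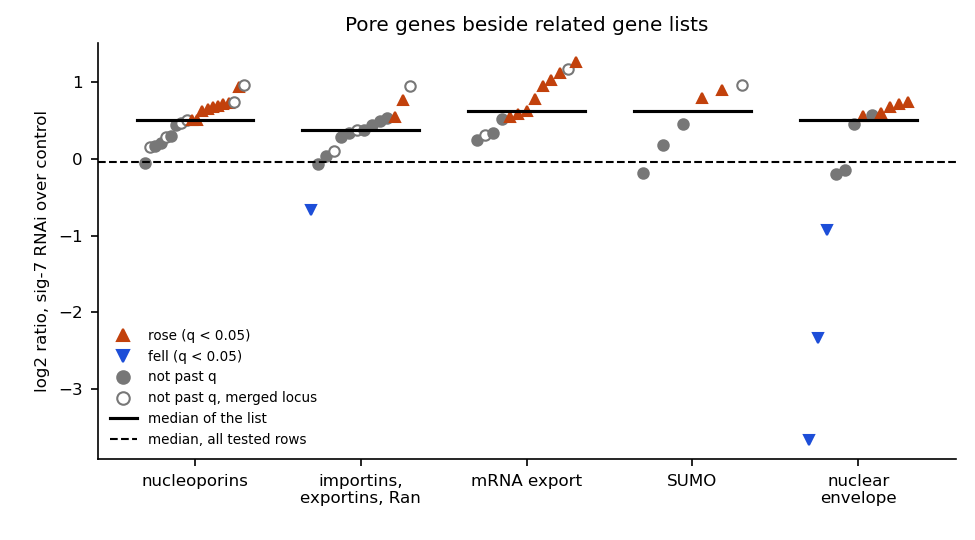
log2 ratio of sig-7 RNAi over control for tested nucleoporin genes, transport genes and 3 related lists. Triangles passed q under 0.05 in the direction they point, open circles lie in merged loci, short bars are list medians and the dashed line is the median of all tested rows. The 3 falls of the envelope list (anc-1, unc-83 and unc-84) lie below every pore and transport gene.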

How the data were processed

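RNA-seq values came from 3 tables that the authors deposited, at the level of genes (37812 rows), isoforms (44542) and transcription start site groups (38916). Per the submitters' processing notes, the build was ce10 and the tools FastQC, TopHat2, Cufflinks 2.1.1 and Cuffdiff 2.0.2. Parameters, annotation and strand setting were not given in the sources used here. Per the file headers, each row holds 1 pooled FPKM value per group, their log2 ratio, a p-value and a q-value. Groups came from the sample titles. Nothing says that the libraries of a group were separate cultures, so the deposited q may measure technical spread.

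From these values, folds and medians of the deposited log2 ratio were computed over the 10703 rows with status OK (python 3.11.15, pandas 2.3.3). Infinite ratios (605 rows listed at 0 in 1 group) entered medians by rank. The deposited log2 equalled the ratio of FPKM to within 1.43e-05. The counting code was run on a simulated table whose calls were set beforehand, which checks the code and not the deposited q. A merged locus is a locus string shared by more than 20 gene rows, a limit set after the data were seen. Loci are given from base 1 on ce10, since 3801 loci of a lone 21U RNA span 21 bases from a start counted at 0. Spans, exons and strands came from WBcel235 by name, for 35 of 35 genes, and later gene names from RefSeq (WBcel235).

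The genes and lists were chosen with earlier results of these data known. Every gene of the name rule is named, as are mel-28, sig-7 and, of each other list, the 4 genes with the largest log2 ratios in size among those with deposited q under 0.05. nxf-1, nxt-1, smo-1, lmn-1, vrk-1, sun-1, lem-2, lem-3 and emr-1 were added after their values were seen. No sequence of these genes was used here.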

Additional observations from a re-analysis of the deposited data

How the results depend on the processing

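No paired analysis was possible because the deposited tables hold 1 pooled value per group, and for the same reason no library could be left out. Scaling to equal total FPKM changed most: rises went from 11 to 2 (nucleoporin genes 9 to 1, transport genes 2 to 1). Single rows can weigh heavily in these totals, with tested values of up to 33284.8 FPKM in the control and 112113 FPKM in the knockdown. Over all tested rows, rises went from 1195 to 811. The medians of the 2 families turned to -0.25 and -0.37, and that of all tested rows to -0.79. The called genes that turned below 0 were npp-5 (-0.067), npp-15 (-0.082), npp-23 (-0.13), npp-3 (-0.25), npp-19 (-0.027), npp-1 (-0.099), npp-11 (-0.24), npp-21 (-0.039) and xpo-2 (-0.20). At q under 0.01, 6 rose (5 nucleoporin genes and 1 transport gene) and 0 fell. The fall of ima-3 had no counterpart in the transcription start site and isoform tables, where 0 fell because the gene was not tested. With a 1.5-fold minimum, 1 transport gene rose. The other alternatives (floors of 1 and 10 FPKM, merged or shared loci left out, pseudocounts of 1 and 0.1 FPKM, isoform sums) kept every count within 1.5 times and every median and log2 ratio within 0.1.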

Other observations

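The link between shared loci and calls ran through the whole gene table. Among rows with a mean of at least 10 FPKM and a difference of 1.5-fold to 4-fold, 1349 of 1560 passed q under 0.05 where the locus belonged to 1 row. The share was 130 of 170 for loci of 2 to 5 rows, 8 of 20 for 6 to 20 rows, 5 of 27 for 21 to 50 rows and 4 of 447 above 50 rows. The 2160 tested rows in loci of more than 20 rows and the 8543 others had nearly equal median log2 ratios, -0.028 and -0.043. Related genes with high ratios and no call in such loci were nxt-1, the partner gene of the mRNA export receptor (53.2 and 119.8 FPKM, q = 0.943 in the authors' deposited table), and smo-1 (q = 0.506 in the authors' deposited table). A hit list drawn from the deposited q would leave these and ran-1 out. What sets the deposited q in merged loci was not tested.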
